A study of Arabidopsis thaliana with 6 samples.

Results

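The flavonol branch of the flavonoid pathway is followed here through 10 Arabidopsis thaliana genes in root RNA of the xal1-2 mutant and of wild type (WT). The genes were chosen by identifier. They are CHS, CHI, F3H and F3'H, which act early in the pathway, FLS1 and UGT78D2, which make and glucosylate flavonols, DFR, which opens the anthocyanin branch, and the regulators MYB11, MYB12 and MYB111. All 10 were among the 32833 genes of the table, all 10 had at least 1 read, and 7 had a mean of at least 10 scaled counts (reads per gene divided by a size factor of the library, as the authors deposited them). The xal1-2 group lacks the function of XAL1 (XAANTAL1, AT1G71692), which encodes a MADS-box transcription factor, in the Col-0 background, and the WT group is Col-0. Each group has 3 biological replicates, each of roots from about 60 plants, taken 8 days after sowing with hypocotyls and cotyledons removed. All plants grew on vertical plates with 0.2X MS salts and 1% sucrose at 22 °C, in 16 h of light and 8 h of dark, and share the treatment label MS 0.2X. The study asked which genes change in the short, slowly dividing root of the mutant.

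Flavonols are made from phenylalanine-derived coumaroyl-CoA. Chalcone synthase (CHS) condenses it with malonyl-CoA, chalcone isomerase (CHI) closes the ring, flavanone 3-hydroxylase (F3H) gives dihydrokaempferol, and flavonoid 3'-hydroxylase (F3'H) adds the hydroxyl group that separates quercetin from kaempferol. Flavonol synthase (FLS1) and dihydroflavonol reductase (DFR) compete for the same dihydroflavonols, and MYB11, MYB12 and MYB111 are R2R3-MYB activators of the flavonol genes, of which MYB12 is known for its role in the root. In roots flavonols are known to act on auxin transport and to scavenge reactive oxygen.

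None of the 10 genes was called different between the genotypes. Across all genes, 961 of 24441 tested were called (limma-trend on log2(scaled count + 1), Benjamini-Hochberg adjusted p under 0.05), which is 3.93%. By direction, 2.27% of the genes tested were lower and 1.66% higher in xal1-2. Of the 10, 0 were called and 0 had an unadjusted p under 0.05, which 4781 of the 24441 genes tested had. On the recovered reads, where DFR, MYB11 and MYB111 were filtered out or given no adjusted p, edgeR, DESeq2 and limma-voom called 0 of the other 7, beside 5.56%, 5.6% and 4.94% of all genes they tested. The median log2 fold change of the 10 was -0.19 with 9 below 0, beside a median of -0.004 and 12333 of 24441 below 0 over all genes. The 9 include DFR and MYB111, which had at most 2 reads in any library, and FLS1 and F3'H, whose mean scaled counts were higher in xal1-2. Scaling by trimmed-mean (TMM) or upper-quartile factors left 9 of the 10 below 0, and limma-voom left 6 of the 7 it tested. Scaling by library totals left 6 of the 10 below 0, DESeq2 left 7 of 10, and edgeR left 5 of the 7 it tested. In whole roots, fewer cells of a type and less RNA per cell cannot be told apart. Leaving out xal1-2 replicate 1 left 81 calls over all genes, and leaving out WT replicate 2 left 193; the 10 genes gave 0 calls whichever library was left out. The more visible difference lay among libraries of one genotype: in 6 of the 7 well-expressed genes the library numbered 1 was the lowest of its genotype in both xal1-2 and WT, and CHI, F3'H and FLS1 differed by 2.49 to 3.33 times between the highest and lowest library of a genotype.

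The bases just before the annotated start of 6 genes are shown. Some of them hold CACGTG or ACGT, motifs known to bind regulators of light-responsive flavonoid genes, and others hold neither. Each sequence is the 250 bases upstream of the gene start in RefSeq's TAIR10.1 annotation, read 5′ to 3′ on the strand of the gene. Capitals mark the G-box CACGTG and its core ACGT, which lies inside every CACGTG. The windows are chr5:4488226-4488475 on the plus strand for CHS, chr3:19024942-19025191 on the plus strand for F3H, chr2:19476076-19476325 on the plus strand for MYB12, chr5:17166033-17166282 on the minus strand for DFR, chr5:2803583-2803832 on the plus strand for FLS1 and chr5:2560078-2560327 on the plus strand for F3'H.
CHS: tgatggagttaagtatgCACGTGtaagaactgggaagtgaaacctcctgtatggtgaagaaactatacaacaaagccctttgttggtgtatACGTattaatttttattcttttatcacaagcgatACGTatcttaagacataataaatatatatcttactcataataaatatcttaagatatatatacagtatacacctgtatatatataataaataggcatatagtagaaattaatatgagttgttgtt
F3H: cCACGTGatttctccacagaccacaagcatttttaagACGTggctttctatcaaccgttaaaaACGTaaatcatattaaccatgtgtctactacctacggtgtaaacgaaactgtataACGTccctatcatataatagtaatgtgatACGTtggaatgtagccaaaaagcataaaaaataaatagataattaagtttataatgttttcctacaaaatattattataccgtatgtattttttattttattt
MYB12: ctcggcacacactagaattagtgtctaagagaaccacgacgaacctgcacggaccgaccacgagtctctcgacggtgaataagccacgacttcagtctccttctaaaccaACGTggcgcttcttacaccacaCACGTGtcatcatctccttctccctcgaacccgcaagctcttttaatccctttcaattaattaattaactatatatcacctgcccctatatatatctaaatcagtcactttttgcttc
DFR: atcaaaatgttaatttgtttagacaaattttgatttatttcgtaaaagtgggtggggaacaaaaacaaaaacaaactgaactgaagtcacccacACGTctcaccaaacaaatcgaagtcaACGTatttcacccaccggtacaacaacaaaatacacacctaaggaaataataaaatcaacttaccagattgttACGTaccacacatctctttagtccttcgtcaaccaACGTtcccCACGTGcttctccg
FLS1: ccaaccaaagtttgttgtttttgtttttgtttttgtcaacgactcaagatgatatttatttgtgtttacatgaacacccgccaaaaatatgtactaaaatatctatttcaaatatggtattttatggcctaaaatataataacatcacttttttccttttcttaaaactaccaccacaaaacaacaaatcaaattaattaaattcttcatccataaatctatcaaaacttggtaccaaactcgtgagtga
F3'H: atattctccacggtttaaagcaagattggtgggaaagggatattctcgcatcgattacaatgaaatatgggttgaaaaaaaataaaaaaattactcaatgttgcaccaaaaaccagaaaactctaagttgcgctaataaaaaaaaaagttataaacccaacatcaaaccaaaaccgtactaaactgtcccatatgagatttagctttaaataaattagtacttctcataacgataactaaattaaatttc

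Counted over both strands, CACGTG stood in the window of 4 of the 10 genes, namely CHS, F3H, DFR and MYB12, and in 5.9% of the 32546 windows of this length before the genes of the table. ACGT stood in 6 of the 10, with MYB11 and MYB111 added, and in 42.8% of all windows. AC elements, which R2R3-MYB proteins of this kind are known to bind, were in 0 of the 10 windows. The form ACCTACC stood in 1.12% of all windows, the form ACCAACC in 2.69% and the form ACCTAAC in 2.43%. CHI, F3'H, FLS1 and UGT78D2 held none of the 5 motifs in these 250 bases. The F3H window overlaps AT3G51238, a long noncoding RNA gene on the opposite strand with a mean of 0.3 scaled counts.

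The libraries held 6978879 to 9247089 recovered reads. XAL1, the mutated gene, was at 76.5, 102 and 103.2 scaled counts in the xal1-2 libraries, against 263.8, 250.1 and 268.7 in the WT libraries (log2 fold change -1.48, SE 0.14, adjusted p = 0.00034), lower in every xal1-2 library. Tissue was checked with 9 root markers, all of them detected in both genotypes, with PYK10, a beta-glucosidase abundant in roots, at 134063 ± 12892 scaled counts in xal1-2 and 143615 ± 8854 in WT (SD, n = 3 each). Of these 9, 2 had an unadjusted limma-trend p under 0.05, beside 4781 of 24441 over all genes. Of the 9, 1 was called, beside 3.93% of all genes. This was CASP1, a Casparian strip gene, which fell to 1354 ± 103 in xal1-2, against 2022 ± 188 in WT (log2 fold change -0.58, SE 0.11, adjusted p = 0.0185). CASP1 was not called without WT replicate 1 or 2 or xal1-2 replicate 1 or 3 (adjusted p from 0.0589 to 0.115). PLT1, a root stem cell regulator, was on the other side, at 73.1 ± 15.0 in xal1-2 and 46.4 ± 4.17 in WT (log2 fold change 0.63, SE 0.20, adjusted p = 0.111), with no overlap and no call. Green tissue markers (13 genes) summed to 3926, 2840 and 4947 scaled counts in xal1-2 replicates 1, 2 and 3, against 4133, 3521 and 4739 in WT replicates 1, 2 and 3. The lowest sum was that of replicate 2 in both genotypes. LHCB1.3 was at 786.9 ± 222.6 in xal1-2 and 742.3 ± 124.7 in WT, and PSBO1 at 750.2 ± 151 in xal1-2 and 889.4 ± 53.9 in WT. Limma-trend called 0 of the 13, and 0 had an unadjusted p under 0.05 in it. The tests on reads (edgeR, DESeq2 and limma-voom) gave an adjusted p to 9 of the 13 and called 0. LHCB1.1, RBCS1B, RBCS2B and RBCS3B had too few reads for those tests.

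CHS (AT5G13930, chromosome 5, 4488476 to 4490264, plus strand, TAIR10.1) was the most abundant of the 10. Its scaled counts were 6168, 9463 and 8495 in xal1-2 replicates 1, 2 and 3, against 6879, 8488 and 9357 in WT replicates 1, 2 and 3. The genotypes overlapped, and replicate 1 was the lowest library in each. The means were 8042 ± 1694 in xal1-2 and 8242 ± 1257 in WT (SD, n = 3 each), and the fitted log2 difference was -0.05 with SE 0.19 (adjusted p = 0.917). The 95% interval of the ratio ran from 0.724 to 1.3. It is not adjusted for the number of genes tested and does not exclude a change beyond that range. AT5G13940 overlaps CHS on the opposite strand and had 0 reads in every library.

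CHI (AT3G55120, chromosome 3, 20430059 to 20431597, minus strand) showed the wide spread among libraries most plainly in WT. It had 182.6, 486.2 and 417.4 scaled counts in the xal1-2 libraries, against 204.1, 579.6 and 471.6 in the WT libraries, in order of replicate. Each genotype had 1 low library and 2 high ones, and the ranges overlapped. The log2 fold change was -0.20 (SE 0.39, adjusted p = 0.806), with means of 362 ± 159 in xal1-2 and 418 ± 193 in WT.

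F3H (AT3G51240, chromosome 3, 19025192 to 19026872, plus strand) had the largest difference among the 7 well-expressed genes, and it was not called. Its scaled counts were 283.1, 647.7 and 575.3 in xal1-2, against 465.7, 766.9 and 786.9 in WT. Each xal1-2 library was below the WT library of the same number, but the labels do not pair these libraries and the ranges of the genotypes overlapped. The means were 502 ± 193 in xal1-2 and 673 ± 180 in WT (SD, n = 3 each), with a log2 fold change of -0.47 (SE 0.28, 95% interval -1.08 to 0.14, adjusted p = 0.39).

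F3'H (AT5G07990, chromosome 5, 2560328 to 2563137, plus strand), a cytochrome P450 gene, had 49.1, 163.3 and 156.2 scaled counts in xal1-2, against 61.9, 160.9 and 142.6 in WT. The ranges of the genotypes overlapped, while replicate 1 was at 0.307 of the mean of the other 2 libraries in xal1-2 and at 0.408 in WT. The log2 fold change was -0.06 (SE 0.44, adjusted p = 0.96), with a 95% interval of -1.02 to 0.90. That interval belongs to the estimate and is not the smallest change that could be called here.

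FLS1 (AT5G08640, chromosome 5, 2803833 to 2805606, plus strand), the enzyme that commits dihydroflavonols to flavonols, followed the same order. It had 390.3, 1226 and 1097 scaled counts in xal1-2, against 499.4, 1244 and 945 in WT. Replicate 1 was at 0.336 of the mean of the other 2 libraries in xal1-2 and at 0.456 in WT. The means were 904 ± 450 in xal1-2 and 896 ± 375 in WT (SD, n = 3 each), and the fitted log2 difference was -0.05 with SE 0.40 (adjusted p = 0.96). The 95% interval of the ratio ran from 0.528 to 1.76. The direction of so small a difference changed with the libraries used. On the log2 scale FLS1 was at 0.23 without WT replicate 2 and at 0.03 without WT replicate 3. It stood at 0.47 without xal1-2 replicate 1 (adjusted p = 0.544) and at -0.43 without WT replicate 1 (adjusted p = 0.628). Without xal1-2 replicate 1 and without WT replicate 1, in that order, F3'H stood at 0.50 and -0.48 and CHI at 0.24 and -0.65.

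UGT78D2 (AT5G17050, chromosome 5, 5607788 to 5609589, minus strand), a flavonoid 3-O-glucosyltransferase gene, had 197.5, 353.1 and 355.6 scaled counts in xal1-2, against 231.2, 492.6 and 443.2 in WT. Replicate 1 was again the lowest library of each genotype, and the ranges overlapped. The log2 fold change was -0.34 (SE 0.28, adjusted p = 0.549), with means of 302.1 ± 90.6 in xal1-2 and 389 ± 139 in WT. How reads shared with close relatives were counted is not stated in the labels, so the level of UGT78D2 is uncertain to that extent. AT5G17040, a glycosyltransferase gene beside it, had 36.5, 90.5 and 110.3 scaled counts in xal1-2, against 26.1, 56.2 and 63.1 in WT. UGT78D3, nearby on the chromosome, had 0, 2.66 and 0 scaled counts in xal1-2 and 0, 0 and 1.83 in WT.

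DFR (AT5G42800, chromosome 5, 17164093 to 17166032, minus strand), the entry to anthocyanins, was at the edge of detection. It had 0, 1 and 1 reads in the xal1-2 libraries and 2, 1 and 2 reads in the WT libraries. Its xal1-2 libraries all lay below its WT libraries once scaled (at most 0.887, against at least 1.1). Both of these values are 1 read divided by the size factor of the library, so the unscaled reads overlapped. Every library was under the floor of 3 reads that a count of 0 allows, so no fold change is given. A log2 ratio of FLS1 to DFR is set by the pseudocount at such counts: its difference between the genotypes was 0.75 with a pseudocount of 1, 1.87 with 0.1 and 0.21 with 5, and nothing is read from it. The lowest FLS1 library held 342 reads and the highest DFR library 2.

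Of the 3 regulators, MYB12 (AT2G47460, chromosome 2, 19476326 to 19479597, plus strand) was the one with a measurable level. It had 67.3, 63.9 and 88.2 scaled counts in xal1-2, against 70.6, 92.6 and 85.0 in WT. In xal1-2 its replicates 1 and 2 rested on 59 and 72 reads, and their scaled counts were too close to order. FLS1 and CHI had their highest xal1-2 library at replicate 2. The means were 73.2 ± 13.2 in xal1-2 and 82.7 ± 11.2 in WT (SD, n = 3 each), and the fitted log2 difference was -0.18 (SE 0.19, 95% interval -0.59 to 0.23, adjusted p = 0.664). MYB11 (AT3G62610, chromosome 3, 23154630 to 23156585, plus strand) had 1 read in xal1-2 replicate 1 and 0 in the other 5 libraries. MYB111 (AT5G49330, chromosome 5, 19998823 to 20001572, minus strand) had 1 read in WT replicate 3 and 0 in the other 5. Both were under the floor of 3 reads in every library, and no fold change is given for them.

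**Figure D1:**
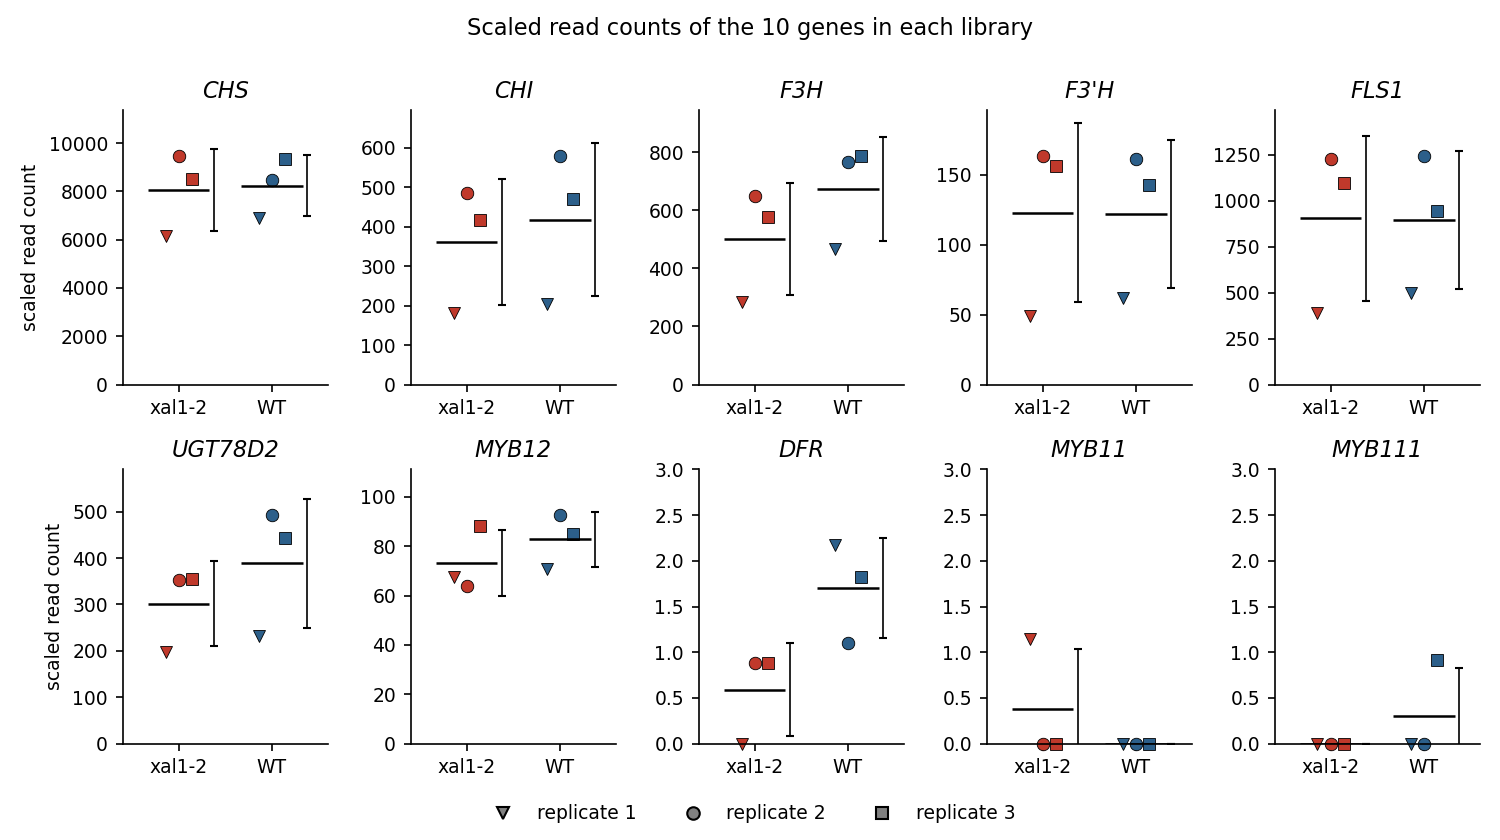
Scaled read counts (vertical axis, from 0) of the 10 genes in the 3 xal1-2 and 3 WT libraries. Symbols mark the replicate number, horizontal lines the mean and bars at the side 1 SD of n = 3; the triangle of replicate 1 is the lowest symbol of both genotypes for CHS, CHI, F3H, F3'H, FLS1 and UGT78D2, and the genotypes overlap in all 7 well-expressed genes.

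Per kilobase of annotated exon, the order of levels was the same in both genotypes. CHS was at 4722 ± 995 scaled counts per kilobase in xal1-2 and 4839 ± 738 in WT, rank 96 of 24324 genes with reads and a length. FLS1 came next (559 ± 278 in xal1-2, 554 ± 232 in WT), then F3H (333 ± 128 in xal1-2, 446 ± 119 in WT), CHI (326 ± 143 in xal1-2, 376 ± 174 in WT) and UGT78D2 (186 ± 55.9 in xal1-2, 240.1 ± 85.7 in WT). F3'H was lower, at 63.7 ± 33.2 scaled counts per kilobase in xal1-2 and 63.1 ± 27.3 in WT, and MYB12 was at 46.2 ± 8.33 in xal1-2 and 52.2 ± 7.06 in WT (SD, n = 3 each). Of the 6 neighbouring pairs, F3H and CHI were the one whose means differed by less than the SD of either gene in both genotypes. FLS1 and F3H, CHI and UGT78D2, and F3'H and MYB12 differed by less than the larger SD of the pair in both genotypes. Library by library, FLS1 was above F3H in 5 of 6, F3H above CHI in 4 of 6, CHI above UGT78D2 in 6 of 6 and F3'H above MYB12 in 4 of 6. CHS was above FLS1, and UGT78D2 above F3'H, in 6 of 6 libraries and by more than either SD.

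Among genes with a mean of at least 10 scaled counts, the libraries of the genotypes did not overlap for 27.8% of 18823 genes and for 0 of the 7 well-expressed genes of this set. Replicate 1 was the lowest library in both genotypes for 10.9% of the 18823 and for 6 of the 7. It was at or below 0.5 of the mean of the other 2 libraries in both genotypes for 39 genes, 0.207% of the 18823, and CHI, F3'H and FLS1 were 3 of them. These counts describe the libraries and were chosen after the values were seen. The labels give the number 1 to a library of each genotype and do not say that same-numbered libraries shared a plate or a day. Replicates 1, 2 and 3 held 6978879, 9247089 and 9191144 reads in xal1-2 and 7929009, 7740207 and 8962691 reads in WT. Of the 13 green tissue markers, 3 were lowest at replicate 1 in both genotypes (LHCB1.1, LHCB2.1 and PSBS). LHCB2.1 was among the 39 genes, with 39.9, 59.4 and 130.6 scaled counts in xal1-2, against 39.1, 88.2 and 132.5 in WT. The part of library size and of green tissue in the replicate 1 pattern was not tested.

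The likeness of library profiles was measured as the root mean square difference of log2(scaled count + 1), each gene centred on its own mean over the 6 libraries. Measured from FLS1, a starting gene chosen after its values were seen, F3'H was the nearest of 18822 genes (0.0962) and CHI the third (0.143). UGT78D2 ranked 20 (0.297), F3H 28 (0.314), CHS 227 (0.451) and MYB12 1788 (0.578), where the median gene was at 0.687. Outside the set, the 5 nearest to FLS1 were AT2G23910, a gene for an NAD(P)-binding Rossmann-fold protein (0.113), CHIL, the chalcone isomerase-like gene (0.196), the glucosyltransferase gene UGT84A1 (0.2), AT2G34655, of no annotated function (0.214), and AT2G23000, annotated as SCPL10 (0.241). AT2G23910 had 109.6, 376.2 and 316.8 scaled counts in xal1-2, against 122.7, 363.6 and 239.4 in WT. CHIL had 239.7, 571.4 and 563 in xal1-2, against 322.4, 603.9 and 609.6 in WT. The 6 libraries share their scaling, so these distances describe these libraries and carry no test.

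Measured from CHS or MYB12, the other genes of the set were mostly not near by this distance. It counts the size of the differences between libraries as well as their order. The highest CHS library was 1.53 times the lowest in xal1-2 and 1.36 times in WT. For FLS1 it was 3.14 times in xal1-2 and 2.49 times in WT. Both genes were lowest at replicate 1 of each genotype, so a far rank does not by itself mean an unlike order of libraries. From CHS, MYB12 ranked 3748, UGT78D2 8561, F3H 9977, CHI 15988, FLS1 16249 and F3'H 17004 of 18822, and the last 4 were farther away than the median gene (0.304). The distance between CHS and FLS1, 0.451, is the same from either side, and ranks 227 from FLS1 and 16249 from CHS. From MYB12, CHS ranked 5672, UGT78D2 13851, F3H 15800, CHI 17723, FLS1 17899 and F3'H 18139, and all but CHS were farther away than the median gene (0.284). Nearest to CHS outside the set were AT3G45210 (0.0244), ZFN2 (0.0509), the arogenate dehydratase gene ADT1 (0.059), WRNEXO (0.06) and the malonyltransferase gene PMAT1 (0.0752). Nearest to MYB12 were the ACT-domain gene ACR8 (0.0394), the receptor-like kinase gene AT2G24230 (0.0547), the transporter gene AT2G05755 (0.0559), the 2-oxoglutarate oxygenase gene AT2G25450 (0.0576) and AT1G04778 (0.0597).

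**Figure D2:**
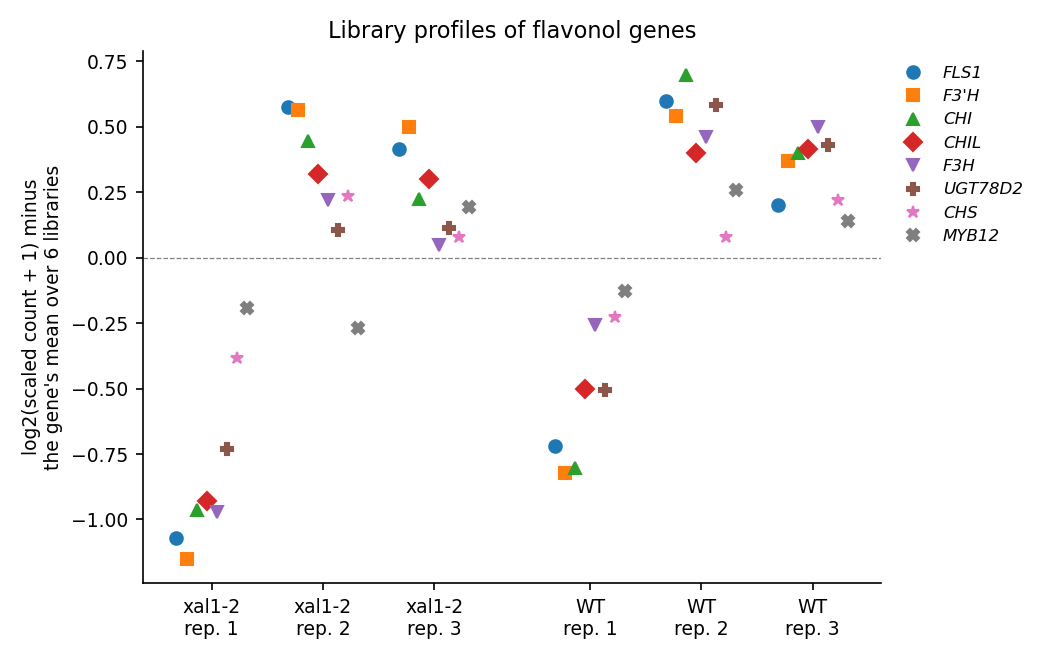
Profiles of 8 genes over the 3 xal1-2 and 3 WT libraries, as log2(scaled count + 1) minus the mean of each gene over the 6 libraries (vertical axis). FLS1, F3'H, CHI, CHIL, F3H, UGT78D2 and CHS lie lowest at replicate 1 of both genotypes and above 0 elsewhere. Of these, CHS has the smallest differences between libraries. The lowest point of MYB12, at xal1-2 replicate 2, lies close to its point at xal1-2 replicate 1.

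**Figure D3:**
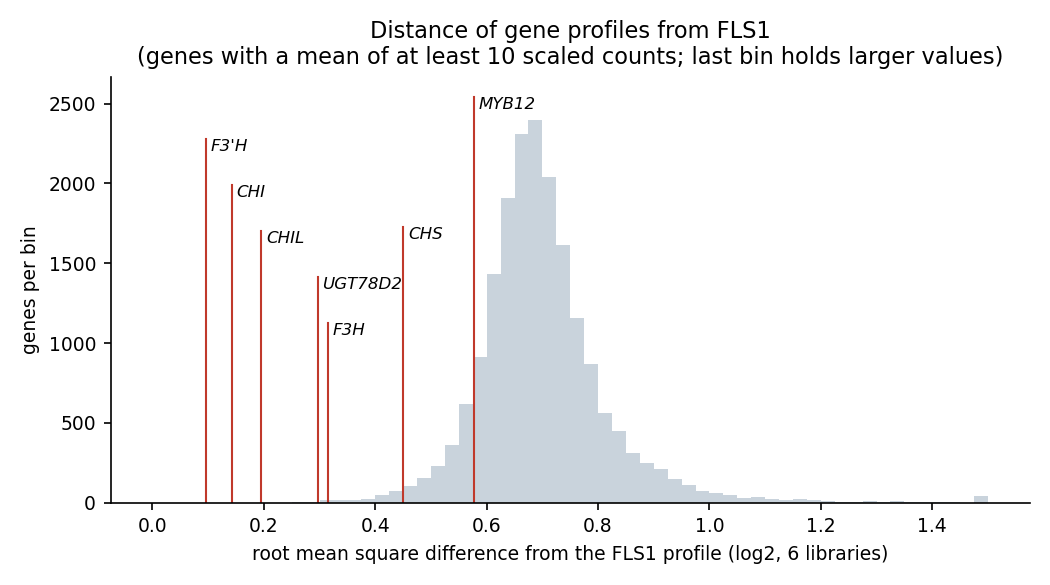
Number of genes (vertical axis) by the root mean square difference of their library profile from that of FLS1 (horizontal axis, log2 units over 6 libraries), for 18822 genes with a mean of at least 10 scaled counts. Red lines mark F3'H at 0.0962, CHI at 0.143 and CHIL at 0.196, far left of the median of 0.687, and MYB12 at 0.578, nearer to the bulk.

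Upstream of CHS, the phenylpropanoid entry enzymes included the called genes PAL4 and 4CL1. Of 8 genes, 2 fell, where 2.27% of all genes tested fell, and 6 were not called. An unadjusted limma-trend p under 0.05 was found for 5 of the 8, beside 4781 of 24441 over all genes. The median log2 fold change was -0.53, beside -0.004 over all genes. PAL4, a phenylalanine ammonia-lyase gene, had 349.3, 309.7 and 360.9 scaled counts in xal1-2, against 617.7, 684.3 and 647 in WT, without overlap. Its means were 339.9 ± 26.9 in xal1-2 and 649.7 ± 33.4 in WT (SD, n = 3 each; log2 fold change -0.93, SE 0.10, adjusted p = 0.00086). The 4-coumarate:CoA ligase gene 4CL1 fell to 1989 ± 110 in xal1-2, against 2905 ± 102 in WT (log2 fold change -0.55, SE 0.10, adjusted p = 0.0179). Its call was lost without WT replicate 1 (adjusted p = 0.0524), WT replicate 2 (0.0956) or xal1-2 replicate 1 (0.103). PAL1, the most abundant lyase gene, was at 4663 ± 853 in xal1-2 and 6737 ± 1122 in WT (adjusted p = 0.116), and C4H, the cinnamate hydroxylase gene, at 6594 ± 728 in xal1-2 and 6975 ± 424 in WT (adjusted p = 0.769). DESeq2 on the recovered reads called 4 lower of the 7 to which it gave an adjusted p, with PAL1 and PAL2 added. These enzymes are known to supply lignin synthesis as well. 4CL3, a ligase gene known for the flavonoid branch, had 61.6, 166.8 and 182.7 scaled counts in xal1-2, against 83.6, 249 and 276.9 in WT, with replicate 1 lowest in both, and was not called (adjusted p = 0.571).

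The relatives of CHI and FLS1 gave 0 calls among 5 tested in limma-trend, where 0 had an unadjusted p under 0.05, and 0 in edgeR, DESeq2 and limma-voom; CHI2 and FLS6 had 0 reads. The median log2 fold change of the 5 was -0.15. FLS5 was the most abundant, at 7297 ± 563 scaled counts in xal1-2 and 5916 ± 1205 in WT (log2 fold change 0.32, SE 0.17, adjusted p = 0.328). FLS3 was at 467.7 ± 73.0 in xal1-2 and 516.4 ± 52.4 in WT (adjusted p = 0.573).

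Downstream, limma-trend called 0 of 8 genes for flavonol decoration, transport and breakdown, with 1 at an unadjusted p under 0.05 and a median log2 fold change of -0.13. EdgeR and limma-voom called 0 of the 6 they tested, UGT78D3 and UGT73C6 having too few reads. That 1 was DTX35, an efflux carrier gene tied to flavonoid metabolism in the reference annotation, with 659.7, 849.1 and 835.7 scaled counts in xal1-2, against 882.6, 1430 and 1434 in WT (log2 fold change -0.65, SE 0.18, adjusted p = 0.0659). DESeq2 called it (adjusted p = 0.00594), as did limma-trend when WT replicate 1 was left out (adjusted p = 0.0101). RHM1, the rhamnose synthase gene, was at 3632 ± 643 in xal1-2 and 3506 ± 574 in WT (adjusted p = 0.896), and OMT1, the flavonol O-methyltransferase gene, at 4598 ± 629 in xal1-2 and 5105 ± 496 in WT (adjusted p = 0.609).

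The anthocyanin and proanthocyanidin list gave 0 calls in limma-trend among the 8 of its 11 genes that had reads, with a median log2 fold change of -0.03. The tests on reads gave an adjusted p to 4 of the 8 (not to ANR, TT19, UGT75C1 or UGT79B1) and called 0. The 1 gene at an unadjusted limma-trend p under 0.05 was TT10, a laccase-like gene, with 22.8, 18.6 and 15.9 scaled counts in xal1-2, against 9.77, 7.71 and 7.31 in WT (log2 fold change 1.11, SE 0.31, adjusted p = 0.06815). LDOX, the anthocyanidin synthase gene, had 0 reads in all 6 libraries. BGLU10 was at 173.7 ± 33.2 scaled counts in xal1-2 and 180 ± 38.2 in WT (adjusted p = 0.9055), and SAT (AT2G23000, SCPL10 in the reference) at 41.4 ± 18.8 in xal1-2 and 44.5 ± 15.1 in WT (adjusted p = 0.856). Among 12 MYB-bHLH-WD40 and seed coat regulators, 7 had 0 reads in every library, PAP1, PAP2 and TT8 among them, and the other 5 gave 0 calls in limma-trend. The tests on reads called 0 of 4, leaving out TT2. The 1 at an unadjusted limma-trend p under 0.05 was TTG1, the WD40 gene, at 266 ± 14.8 in xal1-2 and 328 ± 31.2 in WT (log2 fold change -0.30, SE 0.11, adjusted p = 0.161). The bHLH gene EGL3 was at 60.3 ± 4.39 in xal1-2 and 54.5 ± 8.55 in WT (adjusted p = 0.716).

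**Figure D4:**
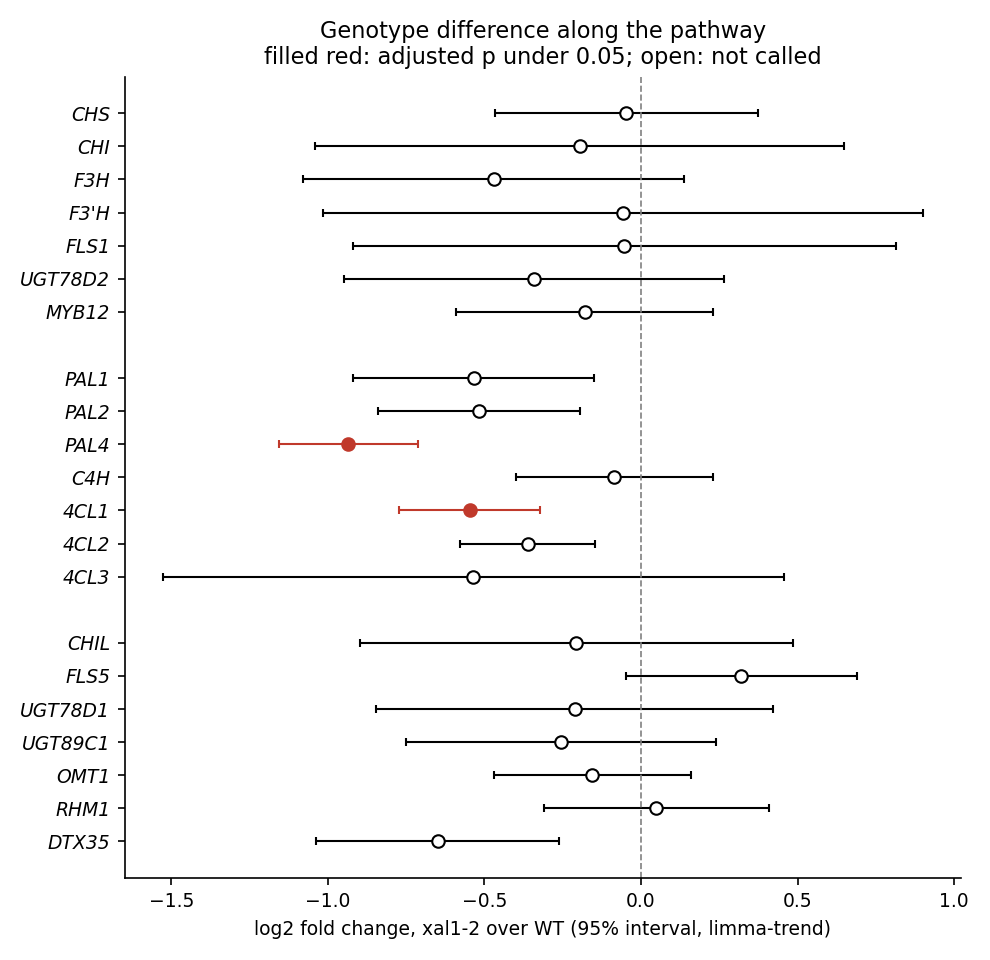
Log2 fold changes of xal1-2 over WT (horizontal axis) with 95% intervals from the limma-trend fit of 3 against 3 libraries, for the 7 well-expressed genes of the set (top), the 7 better expressed entry genes (middle) and 7 related genes (bottom). PAL4 at -0.93 and 4CL1 at -0.55 are filled; all 7 intervals of the set cross 0.

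Of 14 repressors and negative regulators, 1 fell, beside 2.27% of all genes, and 13 were not called, with a median log2 fold change of -0.27. An unadjusted limma-trend p under 0.05 was found for 4 of the 14, beside 4781 of 24441 over all genes. LBD37, a repressor of anthocyanin synthesis that responds to nitrogen, fell to 954.2, 961.8 and 854.2 scaled counts in xal1-2, against 1318, 1298 and 1327 in WT (log2 fold change -0.51, SE 0.09, adjusted p = 0.0161). The call was lost when WT replicate 1 (adjusted p = 0.0524) or WT replicate 2 (0.0777) was left out, and likewise for xal1-2 replicate 1 (0.0836) or xal1-2 replicate 3 (0.0505). Its relative LBD38 was at 1101 ± 61.05 in xal1-2 and 1180 ± 98.6 in WT (adjusted p = 0.658). The R2R3-MYB repressor gene MYB4 was at 292.4 ± 8.79 in xal1-2 and 371.5 ± 57.6 in WT (adjusted p = 0.162). AT1G23390, a Kelch repeat F-box gene, was on the other side, at 653.8 ± 85.2 in xal1-2 and 510.8 ± 83.5 in WT (log2 fold change 0.36, SE 0.14, adjusted p = 0.171). SPL9, the last of the 4, had 5, 2 and 5 reads in xal1-2, against 7, 6 and 13 in WT (adjusted p = 0.208).

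The list of 11 genes upstream of the MYB regulators, most of them in light signalling, gave 0 calls in limma-trend, edgeR, DESeq2 and limma-voom. An unadjusted limma-trend p under 0.05 was found for 3 of the 11, beside 4781 of 24441 over all genes. The list holds both activators and repressors, so a shared sign of its genes is not read as a direction of light signalling. All 11 log2 fold changes were below 0, under each of the other scalings tried as well, with a median of -0.24, beside 12333 of 24441 below 0 over all genes. BBX21, a B-box gene, was at 1056 ± 29.3 scaled counts in xal1-2 and 1251 ± 98.4 in WT (adjusted p = 0.197), and SPA1, a gene for a partner of COP1, at 455.8 ± 43.1 in xal1-2 and 653 ± 172 in WT (adjusted p = 0.146). Leaving out WT replicate 1 gave SPA1 a call (adjusted p = 0.0189). HYH and HY5 encode bZIP factors that bind ACGT motifs and are named here after their values were seen. HYH had 66.2, 165 and 154.4 scaled counts in xal1-2, against 122.7, 273.3 and 190.1 in WT (log2 fold change -0.63, SE 0.34, adjusted p = 0.334). HY5 had 149.5, 203.2 and 222.4 in xal1-2, against 173.7, 284.3 and 261.4 in WT (log2 fold change -0.31, SE 0.20, adjusted p = 0.424). Replicate 1 was lowest in both genotypes for 6 of the 11 genes of this list, HYH and HY5 included, beside the 10.9% of all genes given above. From the FLS1 profile HYH ranked 33 (0.32) and HY5 145 (0.424) of 18822 genes. The other 9 genes of the list ranked between 644 (SPA1) and 11319 (BBX21).

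The authors' deposited table gave the 10 genes no call either. Its adjusted p-values were 0.948 for CHS, 0.913 for CHI, 0.695 for F3H, 0.996 for F3'H, 0.996 for FLS1, 0.747 for UGT78D2 and 0.812 for MYB12, and it gives none for DFR, MYB11 or MYB111.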

How the data were processed

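Root RNA of 3 xal1-2 and 3 WT samples was sequenced as stranded paired-end mRNA libraries, per the labels' protocols. The submitters' processing notes name Trimmomatic 0.39, FastQC 0.11.9, Subread 2.0.1, DESeq2 and TAIR10; which strand setting the counting used, those notes do not say. The authors deposited a signal per gene and library: read counts divided by a size factor, of which 100% of values above 0 came back as whole reads within 0.001 of a read. The authors' deposited log2 fold changes, test statistic (a score) and p-values were used only where named.

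The test was limma-trend (limma 3.58.1, R 4.3.3) on log2(scaled count + 1) over the 24441 genes above 0 in at least 1 library, with genotype as the only term and Benjamini-Hochberg adjustment. Alternatives were edgeR 4.0.16 (quasi-likelihood, filterByExpr), DESeq2 1.42.0 and limma-voom on recovered reads (edgeR and DESeq2 called 1051 and 1055 genes), other scalings, pseudocounts and filters, a replicate block, and leaving out each library. The test was checked on simulated counts. No 2 libraries of a genotype agreed within sampling noise (chi-square per degree of freedom 3.94 to 9.7), and replicates are biological per the labels. Intervals and floors cover counting error or the spread between these samples only.

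The genes, lists and tests were chosen with earlier results of these data known. Named are the 10 genes, XAL1, and from each other list the called genes and the 2 with the highest mean, plus the 5 genes nearest CHS and MYB12; PAL2, 4CL3, CHIL, CHI2, FLS6, DTX35, LDOX, TT10, PAP1, PAP2, TT8, MYB4, HY5, HYH, UGT78D3, UGT73C6, AT5G17040, ANR, TT19, UGT75C1, UGT79B1, TT2, SPL9, AT1G23390, PLT1, LHCB1.1, LHCB2.1, PSBS, RBCS1B, RBCS2B, RBCS3B and the genes nearest FLS1 were added after their values were seen. Coordinates and lengths come from TAIR10.1, in which 32548 identifiers matched and 285 did not; sequences are RefSeq's.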

Additional observations from a re-analysis of the deposited data

How the results depend on the processing

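None of the 17 alternatives called CHS, CHI, F3H, F3'H, FLS1, UGT78D2 or MYB12. Values near 0 changed sign: CHS was at 0.0140 with library totals, F3'H at 0.0143 in DESeq2, 0.0408 in edgeR, 0.00102 with library totals and 0.00249 in limma-voom, and FLS1 at 0.0136 in DESeq2, 0.0284 in edgeR and 0.00706 with library totals. Leaving out 1 library gave log2 fold changes from -0.18 to 0.13 for CHS, -0.65 to 0.24 for CHI, -0.72 to -0.10 for F3H, -0.48 to 0.50 for F3'H, -0.43 to 0.47 for FLS1, -0.68 to -0.06 for UGT78D2 and -0.32 to -0.09 for MYB12. Genes called over the whole table then numbered 81 (without xal1-2 replicate 1) to 871 (without WT replicate 3), and 154 with every gene of the table in the fit. Leaving out 1 library, 1 to 2 entry genes, 0 to 1 decoration genes, 0 to 1 repressors and 0 to 1 root markers were called. The list upstream of the MYB regulators then gave 0 to 1 calls. 4CL1 lost its call without WT replicate 1 or 2 or xal1-2 replicate 1, LBD37 without those or xal1-2 replicate 3, and PAL4 kept it throughout (adjusted p up to 0.0318). With every gene in the fit 1 entry gene, 0 repressors and 0 root markers were called. DESeq2 called 4 entry genes and 1 decoration gene (DTX35), and a pseudocount of 5 called 1 anthocyanin gene (TT10, adjusted p = 0.0462). The causes were not tested. With library totals the split over all genes was 569 higher and 401 lower, beside 405 and 556 in the main analysis, and the median of all genes moved to 0.05.

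The log2 ratio of FLS1 to DFR, which rests on 0 to 2 DFR reads, differed by 0.25 to 1.204 when 1 library was left out, and is not read. The minimum mean of 10 scaled counts, edgeR and limma-voom left DFR, MYB11 and MYB111 out and DESeq2 gave them no adjusted p.

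Over genes, the deviations of same-numbered libraries correlated with r = 0.0103, 0.282 and 0.0106 for numbers 1, 2 and 3. Between libraries of unlike number r ran from -0.249 to 0.181. The labels do not say whether same-numbered libraries were grown or harvested together, and this was not tested. With the replicate number as a block 839 genes were called, 0 of the 10 and 1 decoration gene (DTX35), and F3H had adjusted p = 0.0605. At 3 libraries a genotype the widest interval of the 7 well-expressed genes, that of F3'H, spans 0.494 to 1.87 in ratio, and DFR, MYB11 and MYB111 are below the depth at which a difference could be seen.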
